A study of Drosophila melanogaster with 3 samples.

Results

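Weak peaks of Chrac-16 whose summits lay in protein-coding exons numbered 1775, of 18904 weak peaks and 24641 pooled peaks in all. They were selected on measured values and on position. A peak was weak when it overlapped by no base any of the 4941 peaks of the optimal list, the set that passed the authors' reproducibility threshold. A weak peak was a member when its summit fell in an annotated coding sequence and lay more than 500 bp from every transcript start. Pooled signal therefore chose the members, and their low signal, their place in coding exons and their distance from starts are properties of the choice and not results.

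Chrac-16 is a small histone-fold protein that pairs with Chrac-14 and joins the ATPase Iswi and its partner Acf in CHRAC, a complex that slides and spaces nucleosomes. Histone-fold pairs of this kind contact DNA with little sequence preference, and complexes built on Iswi act on nucleosome arrays over genes as well as at regulatory elements. Coding exons in Drosophila are richer in G and C than introns and are densely packed with nucleosomes.

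The data came from chromatin immunoprecipitation and sequencing of whole Drosophila melanogaster embryos, in 1 group of 3 biological replicates with no second condition. The embryos were males and females together, 0 to 24 h old, so many stages and cell types were mixed. They came from a transgenic line that stably expressed Chrac-16 with GFP (eGFP in part of the labels) at its C-terminus, and an antibody against GFP was used on chromatin sonicated to 200 to 800 bp. The files are peak lists, so the depth of the libraries is unknown, and the replicate lists held 30000, 24619 and 29140 peaks for replicates 1, 2 and 3.

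The sequences under selected summits show what the members look like. Each line gives, on the coding strand from 5′ to 3′, the bases within 50 bp of a summit on the dm6 build. The lines are cut where the coding exon ends, except that of CG6340. The first 4 are the members of highest pooled signal found in all 3 replicates, among those on the arms whose sequence is printed here. The last 3 are the highest such members with a CAG triplet run, a CA repeat and a GAGA repeat, and capitals mark matches to CAGCAGCAG, CACACACA and GAGAGAG on either strand.
kibra: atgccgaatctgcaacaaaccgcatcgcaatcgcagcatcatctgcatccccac
SelR: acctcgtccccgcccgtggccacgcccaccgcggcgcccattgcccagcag
scrib: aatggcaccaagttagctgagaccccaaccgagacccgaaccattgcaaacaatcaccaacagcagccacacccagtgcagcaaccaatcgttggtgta
svp: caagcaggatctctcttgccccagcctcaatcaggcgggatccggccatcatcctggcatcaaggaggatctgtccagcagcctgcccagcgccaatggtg
InR: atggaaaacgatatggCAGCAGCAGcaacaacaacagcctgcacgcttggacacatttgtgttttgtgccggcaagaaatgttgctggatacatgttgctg
su(w[a]): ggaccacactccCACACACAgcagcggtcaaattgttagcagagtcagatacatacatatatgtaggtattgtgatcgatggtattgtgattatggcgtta
CG6340: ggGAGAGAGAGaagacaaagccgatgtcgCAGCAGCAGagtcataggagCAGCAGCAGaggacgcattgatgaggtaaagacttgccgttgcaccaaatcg
The stretches lie at chr3R:14723520-14723573 (minus strand) for kibra, chr3R:10863638-10863688 (minus) for SelR, chr3R:26566924-26567022 (plus) for scrib, chr3R:12281858-12281958 (plus) for svp, chr3R:21580324-21580424 (minus) for InR, chrX:1041514-1041614 (plus) for su(w[a]) and chrX:15483347-15483447 (plus) for CG6340. Their G+C content ran from 42.6% in su(w[a]) to 78.4% in SelR. The kibra and SelR stretches are short because their summits lay 3 bases and 0 bases from the edge of the coding exon. The CG6340 summit lay 23 bases from the edge of its shortest annotated coding exon. Its line runs past that edge, and the bases from gtaaag on are not to be read as coding in every transcript.

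The 12 strongest members stood in 12 genes of varied function. The highest pooled signal, 97.2, was in kibra, an upstream regulator of the Hippo pathway (chr3R:14723362-14723777), with replicate signals of 22.7, 42.7 and 33.5 in replicates 1, 2 and 3. SelR, which encodes a methionine sulfoxide reductase, had 89.9 pooled and 25.8, 26.1 and 35.0 in the replicates. The polarity gene scrib had 89.0 pooled and 33.5, 20.03 and 35.3 in the replicates. All 3 of these peaks were present in every replicate, and none of the 3 replicates was highest throughout. Signal scales differ between lists, so a pooled value is not to be set against a replicate value.

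The orphan nuclear receptor gene svp followed with a pooled signal of 87.8 and replicate signals of 21.7, 35.2 and 26.5. The splicing regulator gene su(w[a]) had 86.8 pooled and 22.9, 32.1 and 26.5 in the replicates, at a base that is coding in some but not all of its transcripts. Snx27, a sorting nexin gene of endosomal recycling, had 85.5 pooled and 25.8, 45.3 and 13.5 in the replicates. In 4 of these first 6 members (kibra, svp, su(w[a]) and Snx27) replicate 2 gave the highest replicate signal. The scale of the replicate 2 list was also higher. The median signal of its weak coding peaks was 15.3, against 12.9 in replicate 1 and 13.3 in replicate 3. Of the next 6 members, CG31259 had a pooled signal of 81.1, CG9663 had 72.2, CG10343 had 71.1, CG7049 had 70.3, l(3)mbn had 69.0 and the neuropeptide gene Crz had 68.4. All 12 were found in all 3 replicates.

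The edge of the rule fell inside a continuous range of signal. The lowest signal in the optimal list was 99.6, and the highest member was at 97.2. By the same position rule the optimal list held 10 coding peaks (0.202% of 4941, exact 95% binomial interval 0.0971 to 0.372%), from 103.4 in CG33181 through 121.7 in ptc, the Hedgehog receptor gene, to 1096 in the homeobox gene otp. At the other end, the lowest members were in Cyp4ac1, AMPdeam and RluA-1, each at 30.9. The member in AMPdeam overlapped a peak in none of the replicate lists, and those in Cyp4ac1 and RluA-1 only in that of replicate 3. Near the distance limit, the 68 members less than 50 bp beyond it had a median signal of 37.4, and the 53 weak coding peaks up to 50 bp short of it, outside the rule, had 35.7.

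Members spread over 1559 host genes, with few genes holding several. Of the 12397 protein-coding genes with coding sequence more than 500 bp from a start, 12.6% held at least 1 member, and this share is the background for every gene list. A single member was found in 1374 genes, 2 in 161, 3 in 18, 4 in 5 and 5 in 1 gene. The gene with 5 was lola, whose many transcripts encode BTB zinc finger proteins of axon guidance. Its pooled signals were 63.5, 38.1, 35.4, 35.1 and 34.3, and only the first, with replicate signals of 20.2, 19.8 and 25.2, was found in all 3 replicates.

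The 5 genes with 4 members were siz, robo1, enc, Mitf and bun. In siz, an Arf guanine nucleotide exchange factor gene, the pooled signals ran from 36.3 to 53.0, and in enc, a germline gene, from 31.0 to 53.5. In robo1, a receptor for the midline repellent Slit, they were 41.8, 41.6, 41.5 and 39.0. The second and the fourth of these robo1 peaks overlap each other and the same replicate peaks, so they are not separate observations. A pair of members also overlaps in Mitf and in bun, with some but not all replicate peaks shared, and 1728 members were left when overlapping ones were counted once. Mitf, which encodes a helix-loop-helix leucine zipper factor and lies on chromosome 4, had 44.6, 36.9, 36.7 and 33.4. The polarity kinase gene par-1 and the insulin receptor gene InR had 3 members each, led by 62.9 and 66.3. The InR peak of highest signal, shown above with its CAG run, had replicate signals of 20.4, 33.9 and 19.2.

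Among genes for ISWI complexes, 3 of 7 held members, against 12.6% of all genes, and there were 4 members in all. These genes are long: per Mb of coding sequence more than 500 bp from any start the density was 151.7 (exact 95% Poisson interval 41.3 to 388.4), against 95.4 over all such sequence. In the lists of replicates 1, 2 and 3 it was 265.4, 75.8 and 189.6 per Mb, against 153.6, 118.5 and 140.7, so replicate 2 went the other way. E(bx), the largest subunit of the NURF complex, had a pooled signal of 54.6, with 12.6 in replicate 1, no peak in replicate 2 and 17.2 in replicate 3. The gene tou, which encodes a large partner of Iswi, had 45.4 and 35.5, each found in 2 of 3 replicates. Acf itself had 34.3 and a peak in replicate 3 only, at 11.2. None of the 4 was found in all 3 replicates, and no member lay in the other 4 genes of that list.

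Because genes differ in length, gene groups were compared by members per megabase (Mb) of eligible coding sequence, meaning coding bases more than 500 bp from any start. All 18.6 Mb of it held 95.4 members per Mb. Of 25 gene lists, 15 were denser than this and 10 were sparser. The exact 95% Poisson interval covers counting error only, with no allowance for the number of lists compared. It lay above 95.4 for 4 lists and below it for 4. As a check in replicates, the weak coding peaks of each replicate's own list were counted in the same way. In 6 lists the density was above that of all eligible coding sequence in every one of the 3 replicate lists, and in 9 lists it was below in every one. Lists share genes (kis and osa stand in both the remodellers and the Polycomb and Trithorax list), and their counts are small.

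Lists of actin and tubulin, translation factor and ribosomal protein genes were among the densest, and expression was not measured in these data. Actin and tubulin genes held 6 members in 5 of 16 genes, 336.1 per Mb (interval 123.3 to 731.5), and 373.4 ± 64.7 per Mb in the replicate lists (SD, n = 3) against 137.6 ± 17.8 for all eligible coding sequence. Their highest member was in the actin gene Act5C, at 56.2 pooled, 26.0 in replicate 1, none in replicate 2 and 17.7 in replicate 3. Reads in near-identical actin and tubulin copies can be placed in more than 1 gene, so the host gene is uncertain there. Translation factor genes held 8 members in 7 of 18 genes, 258.8 per Mb (111.7 to 510.004). The elongation factor gene eEF2 led them with 59.2 pooled and 15.7, 16.7 and 14.4 in the replicates. Of the 6 actin and tubulin members 1 was found in all 3 replicates, and of the 8 translation factor members 2 were. Over all members this share was 15.7%.

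Cytosolic ribosomal protein genes held 5 members in 5 of 59 genes, 295.6 per Mb (96.0 to 689.9). These genes are short, so only 8.47% of them held a member, below the 12.6% of all genes, although the density per base was 3.10 times that of all eligible coding sequence. RpL10 led them with 49.9, present in replicates 1 and 3, and 1 of the 5 members was found in all 3 replicates. Heat shock and chaperone genes held 6 members in 5 of 23 genes, 186.7 per Mb with an interval (68.5 to 406.5) that spans 95.4. Hsc70-4, a constitutive chaperone with close paralogs, led with 45.4 and was present in replicate 3 only.

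Among the lists of developmental regulator genes given here, the list with an interval above 95.4 was that of neural fate genes, not all of which encode transcription factors. Neural fate genes held 8 members in 6 of 22 genes, 242.8 per Mb (104.8 to 478.4), led by the homeobox gene Dr at 40.5, with peaks in replicates 1 and 3. Of these 8 members, 1 was found in all 3 replicates. The intervals of the other 3 lists span 95.4. Hox genes held 4 members in 3 of 8 genes, 315.1 per Mb (85.8 to 806.7). The lab gene, which patterns the anterior embryo, had 59.8 pooled and 11.6, 20.05 and 23.3 in the replicates. Ubx had 44.3 and 31.8, and Scr had 36.4 with 11.2, 15.3 and 13.4 in the replicates. Nuclear receptor and ecdysone response genes held 11 members in 8 of 24 genes, 170.9 per Mb (85.3 to 305.8), led by svp. Segmentation genes held 4 in 3 of 25, 120.8 per Mb (32.9 to 309.2), led by the gap gene kni at 38.1, which was present in replicate 1 only. In the list of replicate 3, nuclear receptor genes (139.8 per Mb) and segmentation genes (120.8) were below all eligible coding sequence (140.7).

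The chromatin lists had intervals that span 95.4 per Mb. Polycomb and Trithorax genes held 16 members in 12 of 27 genes, 143.3 per Mb (81.9 to 232.7), and 194.1 ± 59.6 in the replicate lists. Their highest member was in pho, a DNA-binding Polycomb group gene on chromosome 4, with 63.1 pooled and 13.1, 23.4 and 23.8 in the replicates. Chromatin remodellers held 15 members in 10 of 23 genes, 156.02 per Mb (87.3 to 257.3), led by E(bx). In the list of replicate 1, Polycomb and Trithorax genes (125.4 per Mb) and remodellers (145.6) were below all eligible coding sequence (153.6). In replicates 2 and 3 both were above it. Insulator protein genes held 2 in 20 genes, 49.8 per Mb (6.04 to 180.05), led by pzg at 41.0. Histone genes held 1, in the variant gene His2Av, with 49.4 pooled and 15.6, 15.4 and 15.8 in the replicates, and reads in the repeated histone copies cannot be placed with certainty.

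Genes for signalling, germ line and the cell cycle lay close to the average or had intervals that span it. Notch, Wnt, Hedgehog and EGF pathway genes held 10 members in 10 of 35 genes, 100.9 per Mb (48.4 to 185.5). The kinase gene sgg led them with 59.8 pooled and 18.9, 28.2 and 19.1 in the replicates. Germ plasm and piRNA genes held 8 in 7 of 21 genes, 182.1 per Mb (78.6 to 358.9), with piwi highest at 42.2 and at 11.7, 20.2 and 17.5 in the replicates. Cell cycle genes held 6 in 5 of 28, 153.8 per Mb, led by E2f1 at 54.6. Replication genes held 6 in 6 of 29, 128.9 per Mb, led by DNAlig1 at 43.0, present in replicate 3 only.

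Genes for giant structural and secreted proteins held few members for their length. Mucin and chitin-binding genes held 2 members in 187071 eligible bases, 10.7 per Mb (1.29 to 38.6) and 28.5 ± 8.17 in the replicate lists. Giant cadherin and adhesion genes held 4, 23.01 per Mb (6.27 to 58.9) and 76.7 ± 8.79 in the replicate lists. Muscle structure genes held 6, 30.96 per Mb (11.4 to 67.4), and dynein and myosin heavy chain genes also held 6, 38.2 per Mb (14.02 to 83.2). The highest of these members were in Cda5 (46.7), the adhesion gene Nrg (49.2), the titin-like gene bt (37.9) and the unconventional myosin gene Myo61F (46.3), and none of the 4 was found in all 3 replicates.

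Genes of terminal differentiation and of the basement membrane were below 95.4 per Mb, each with an interval that spans it. Chemoreceptor genes held 9 members in 9 of 179 genes (5.03%), 53.4 per Mb (24.4 to 101.4), led by Gr89a at 43.6. Cuticle protein genes held 1 in 95, 23.1 per Mb (0.584 to 128.5), in Cpr51A at 59.0, which was found in all 3 replicates at 23.4, 13.7 and 29.0. Yolk and chorion genes held 0 in 14340 eligible bases, which allows up to 257.2 per Mb, so a deficit was not detectable there. Basement membrane and laminin genes held 6 in 5 of 12 genes, 76.3 per Mb (27.99 to 166.007), with Col4a1 highest at 33.6.

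**Figure D1:**
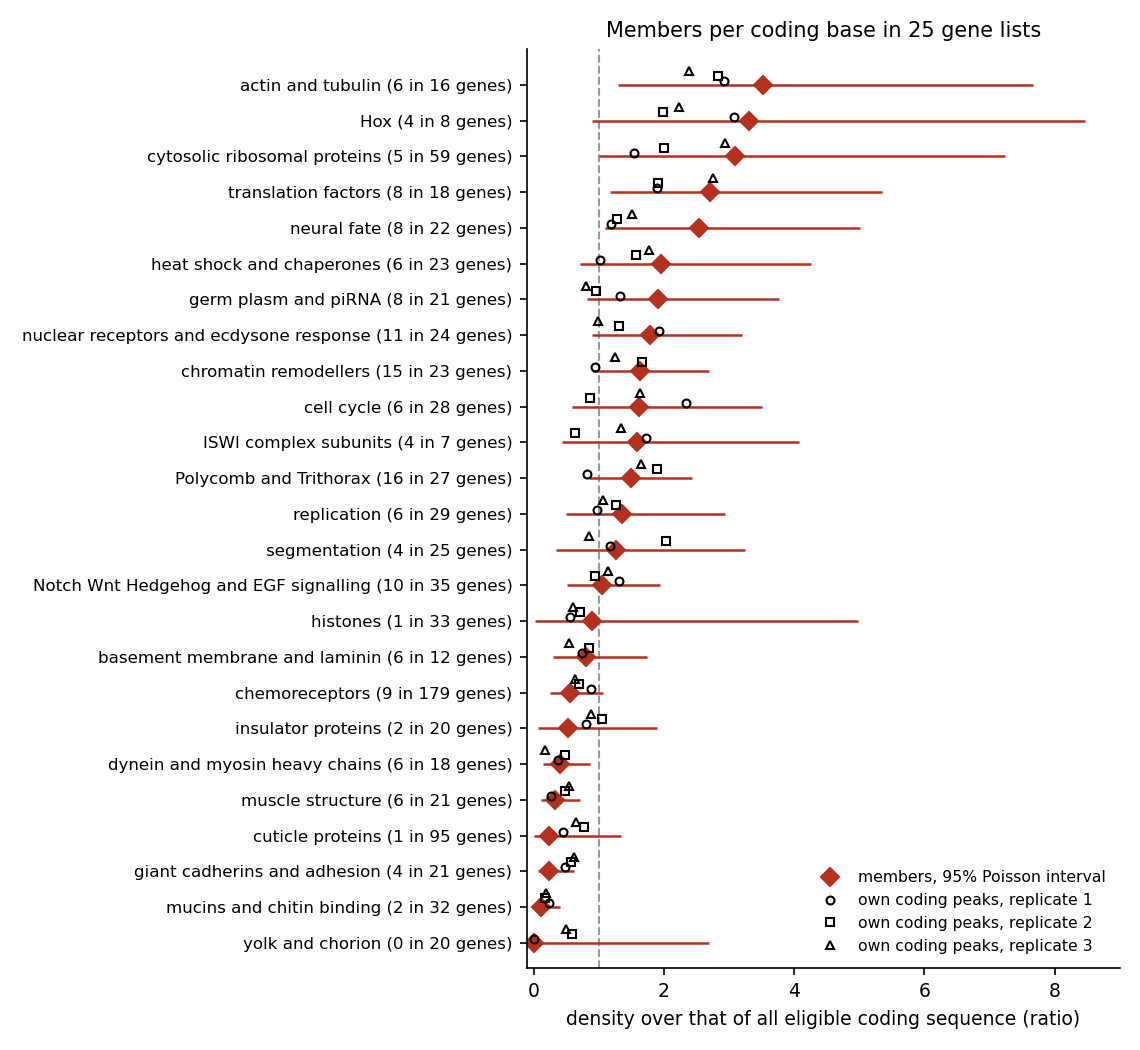
Density of members in 25 gene lists, as a ratio to the density over all eligible coding sequence (dashed line at 1), with lists ordered by that ratio from top to bottom. Diamonds are members with exact 95% Poisson intervals and small open symbols are the weak coding peaks of each replicate's own list: actin and tubulin genes stand at the top at 3.52, and mucin and chitin-binding genes near the bottom at 0.112.

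Length and distance moved with these densities. Genes with under 500 eligible bases held 137.7 members per Mb (113.7 to 165.3), and those with 8000 or more held 46.9 (37.6 to 57.8). In the replicate lists the same groups had 178.8 ± 21.2 and 80.1 ± 3.47 per Mb. The 20 genes with the most eligible sequence held 13 members in 557446 bases, 23.3 per Mb (12.4 to 39.9). Among them dpy, which encodes a giant matrix protein, had 0 members in 68847 bases, where the overall density corresponds to 6.57. The median eligible window lay 11610 bp from a start in the mucin list, 9379 bp in the muscle list and 705 bp in the ribosomal protein list. Density fell with distance over all genes, as given further on, and the part of distance in the differences between lists was not tested.

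Members were found in each replicate list less often than weak peaks elsewhere. Of the 1775 members, 279 (15.7%, exact interval 14.1 to 17.5%) overlapped a peak in all 3 replicate lists, 769 in 2, 655 in 1 and 72 in none. Over all 18904 weak peaks the share in all 3 was 37.4%. It was 39.6% for the weak peaks that were not members, 49.4% at promoters, 36.5% in introns, 35.3% between genes and 28.3% in other exons. The list of replicate 1 holds exactly 30000 peaks, which may be a limit on its length, and whether this lowered presence there was not tested. In replicates 1, 2 and 3, 58.6%, 52.9% and 59.2% of members were present, against 75.2%, 66.1% and 73.6% of the other weak peaks. The difference, -14.7 ± 1.67 percentage points (SD, n = 3), had the same sign in 3 of 3 replicates and exceeded the spread between them. Pooled peaks came from the same 3 libraries, so these values are a description without a test.

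Members also ranked lower inside each replicate list. The median percentile of the overlapping replicate peak (100 being the strongest) was 43.5, 40.2 and 42.1 for members, against 59.7, 54.6 and 58.8 for the other weak peaks. Their pooled signal, which chose them, was lower too. The median pooled signal was 36.3 for members and 42.3 for the other weak peaks, and the median q value was 0.748 against 0.496, with the deposited column read as −log10 q by the convention of the format, since no source used here states what it holds. By that reading a q value of 0.05 or less was listed for 22 members (1.24%) and for 3039 of the others (17.7%).

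Grouping all weak peaks by pooled signal brought the classes closer. All weak peaks were split by pooled signal into 4 sets of equal size. In the weakest set 4.11% of 730 members were found in all 3 replicates, against 9.23% of the other peaks. In the next sets the shares were 10.1% of 593 members against 17.5%, and 33.9% of 380 members against 40.2%. In the strongest set they were 83.3% of 72 members (exact interval 72.7 to 91.1%) against 84.7%. The share of peaks that were members fell over the same sets, at 15.4%, 12.5%, 8.04% and 1.52%.

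The 279 members found in all 3 replicates kept little common order. Spearman's rho of replicate signal across them in the pairs 1 with 2, 1 with 3 and 2 with 3 was 0.255, 0.218 and 0.166. Across the 6782 other weak peaks found in all 3 it was 0.302, 0.350 and 0.318. These are descriptions across peaks, which share libraries and a narrow range of signal. Of the 100 members of highest pooled signal 77 were in all 3 replicates, and of the 100 lowest 7 were.

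**Figure D2:**
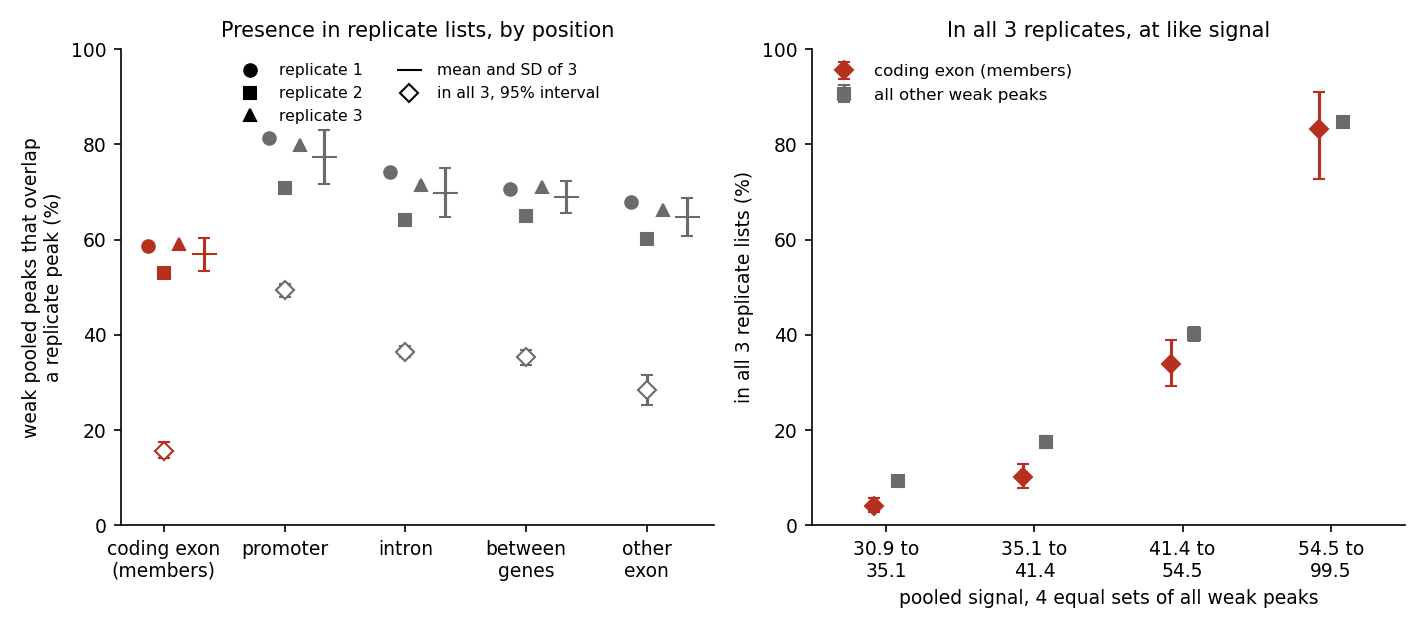
Left, the share of weak pooled peaks that overlap a peak of each replicate list (filled symbols, with mean and SD beside them) and of all 3 lists (open diamonds with exact 95% intervals), by position of the summit; members are lowest in each replicate and at 15.7% for all 3. Right, the share found in all 3 lists in 4 equal sets by pooled signal for members and all other weak peaks, with exact 95% intervals; the shares are 4.11% and 9.23% in the weakest set and 83.3% and 84.7% in the strongest.

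Each replicate list was also classed alone, as a description, since the pooled list was called on the same replicates. The weak peaks of these lists held 2859, 2205 and 2618 coding summits by the same position rule. This was 11.6% ± 0.283 of them (SD, n = 3), against 9.39% (8.98 to 9.81%) in the pooled list and 13.9% of genome bases. Among the 4941 strongest peaks of each replicate the coding share was 0.189% ± 0.0421.

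Member summits were richer in G and C than coding sequence in general. Within 100 bp on either side of the summit the median G+C content was 54.2% (quartiles 49.3 and 58.2%) for members, against 52.2% (47.3 and 56.7%) over all 92761 eligible coding windows. The coding peaks of the 3 replicate lists each had a median of 53.7%. At the third codon position the medians were 67.2% for members and 64.2% for coding windows, and at the first and second positions 49.3% and 48.5%. The share of members over the share of coding windows was 0.548 where G+C was under 40% and 1.498 where it was 65% or more. In replicate lists these ratios were 0.630 ± 0.0538 and 1.38 ± 0.176.

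The named members spanned this range. The svp window had 66.2% G+C and the lab window 62.2%, while those of pho and Mitf on chromosome 4 had 39.3% and, in its strongest member, 35.3%. Weak peaks outside coding exons had a median of 39.8%. Within members G+C and pooled signal were almost unrelated (Spearman's rho 0.0174 across 1775 peaks), while across the other weak peaks rho was -0.237. Both are descriptions across peaks of 1 pooled list.

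**Figure D3:**
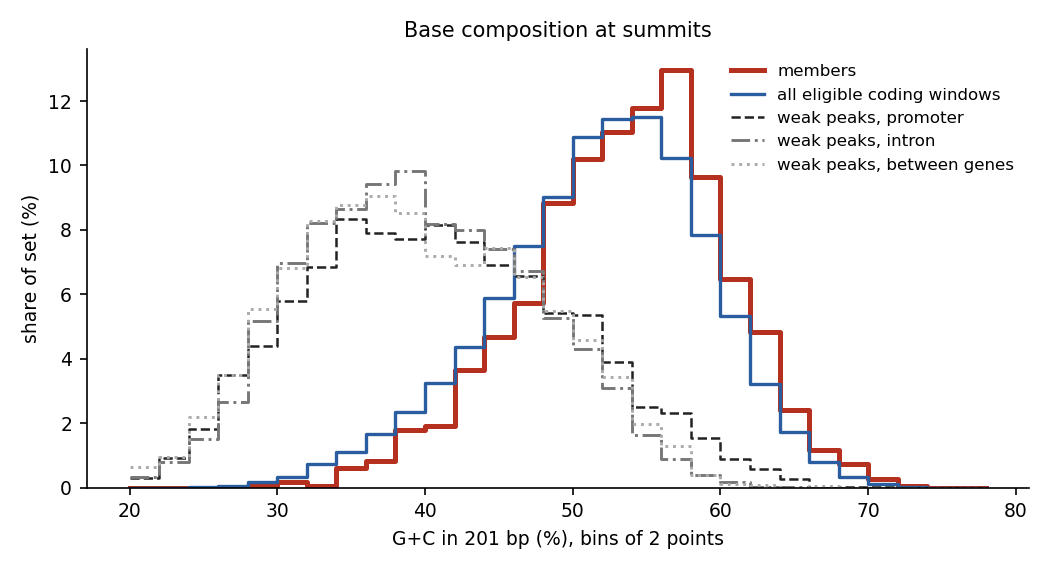
Distribution of G+C content within 100 bp on either side of the summit, in bins of 2 percentage points, for members, all eligible coding windows and weak peaks in 3 other positions. Members (median 54.2%) lie slightly right of coding windows (52.2%), and the weak peaks elsewhere lie well to the left.

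A CAG triplet run and a CA repeat were more frequent at member summits than in coding windows. Of 12 motifs searched on both strands in the same windows, 2 had an exact binomial interval above the share of all coding windows and 1 below. The triplet run CAGCAGCAG, part of the glutamine-coding opa repeats known from Notch, was in 8.17% of members (6.94 to 9.54%), against 5.07% of coding windows, and in 6.87% ± 0.361 of the replicates' coding peaks. Its letters can be seen in the InR and CG6340 sequences. Matches were counted on either strand without regard to reading frame, so they need not encode glutamine. CACACACA, seen in su(w[a]), was in 1.35% of members (0.868 to 2.01%), against 0.575%, and in 0.977% ± 0.0215 in the replicates. The CCAAT box was the motif with an interval below coding windows, in 34.9% of members (32.7 to 37.2%), against 37.3%, and in 36.1% ± 0.0630 in the replicates. The GATA factor motif, searched as TGATAA, was in 6.03% of members and 7.24% of coding windows.

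Motifs of promoter-bound factors were at or near their coding background. TATCGATA, the element bound by Dref, was in 0.169% of members and 0.168% of coding windows, while weak promoter peaks held it in 5.67%. The M1BP core GGTCACAC was in 0.507% of members, 0.346% of coding windows and 5.11% of weak promoter peaks. GAGAGAG, the GAGA factor repeat, was in 1.296%, 1.07% and 4.48% of the same sets. A match is a description of the letters and not of a bound site.

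Member density fell with distance from transcript starts. The median distance was 1549 bp for members and 1885 bp for coding windows, and 1577 ± 31.3 bp in the replicate lists (SD, n = 3). The share of members over that of coding windows was 1.33 below 1000 bp and fell in each further bin to 0.476 from 8000 bp on. In the replicate lists these ratios were 1.24 ± 0.0255 and 0.635 ± 0.111. The nearest optimal summit was at a median of 5367 bp from members and 8095 bp from coding windows. Distance beyond 500 bp was not part of the rule, but the rule removed everything nearer.

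Long coding exons held fewer members than their length gives. The median coding exon with a member was 675 bp long, against 802 bp for coding windows, with 700.3 ± 10.4 bp in the replicate lists. Exons of 200 bp to under 500 bp were at 1.199 times their share of windows and those of 2000 bp or more at 0.567 times. In the transcript with the longest coding sequence, 13.4% of members (11.8 to 15.0%) were in the first coding exon, against 9.54% of windows, and 49.9% (47.6 to 52.3%) in internal ones, against 56.8%. Genes with a single coding exon in some transcript held 9.69% of members and 9.16% of windows. Summits at bases coding in every transcript made up 94.4% of members and 94.2% of windows.

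**Figure D4:**
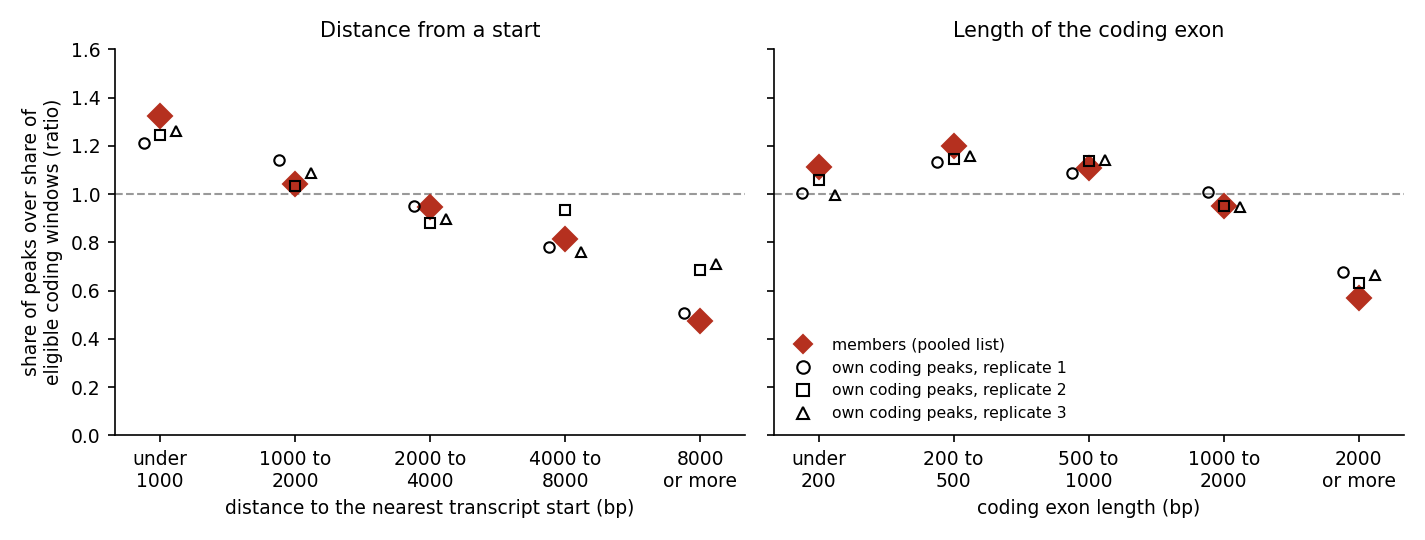
Share of peaks over share of eligible coding windows by distance from the nearest transcript start (left) and by length of the coding exon (right), for members (diamonds) and the weak coding peaks of each replicate list (open symbols), with a dashed line at 1. The ratio for members runs from 1.33 below 1000 bp to 0.476 at 8000 bp or more, and is 0.567 in exons of 2000 bp or more.

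Members were denser in genes whose promoters carried Chrac-16 peaks. Genes with an optimal summit within 500 bp of a start held 117.0 members per Mb (107.95 to 126.5), and 544 of these 2979 genes (18.3%) held a member. Genes with only a weak summit there had 106.9 per Mb (98.8 to 115.4), and genes with none had 69.6 (63.6 to 76.0) with 7.73% of genes. In the replicate lists the densities were 161.4 ± 29.5, 150.1 ± 20.2 and 109.3 ± 7.26 per Mb. Below 1000 bp from a start, the ratio of members to coding windows was 1.64 for genes with an optimal promoter summit and 1.22 for the rest. Beyond 4000 bp it was 0.842 and 0.623, and the order was the same in all 4 distance bins compared. The members in genes with an optimal promoter summit had a median signal of 36.3, against 35.7 in genes with no summit, and 13.5% of them, against 14.8%, were found in all 3 replicates. In genes with only a weak summit both were highest, at 36.7 and 18.5%, so neither followed the order of the densities.

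The X chromosome held fewer members than autosomes per coding base. There were 183 members on X (10.3%, 8.93 to 11.8%), against 17.9% of eligible coding bases and 17.6% of the other weak peaks. This is 55.03 per Mb (47.3 to 63.6) on X and 104.2 (99.1 to 109.4) on autosomes. The ratio of X to autosomes was 0.528 in the pooled list, and 0.679, 0.572 and 0.667 in the lists of replicates 1, 2 and 3 (0.639 ± 0.0588, SD, n = 3). It was below 1 in 3 of 3 replicates, and the exact sign permutation test, two-sided, gave p = 0.25, the smallest that 3 replicates allow.

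Other weak peaks gave ratios nearer to 1. Per base of their own class, the ratio of X to autosomes was 1.04 for introns and for promoters, 0.912 for other exons and 0.885 between genes, and in the replicate lists 0.983 ± 0.00987, 1.04 ± 0.0320, 0.878 ± 0.0260 and 0.811 ± 0.0310. For members the ratio was 0.619 below 1000 bp from a start and 0.479 beyond 4000 bp. It was 0.558 at G+C under 50% and 0.433 at 55% or more, so it stayed below 1 in each of the 7 bins compared. The embryos were males and females together, and the copy number of X in the control was not analysed here.

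Members on X included su(w[a]), Snx27, sgg and Act5C. Their share found in all 3 replicates was 12.6% (23 of 183), against 16.1% (256 of 1592) on autosomes. The small chromosome 4 stood at the other end, with 31 members, 121.5 per Mb (82.6 to 172.5), among them those of Mitf, pho and bt. Of the 31, 11 (35.5%) were in all 3 replicates, and their median signal was 40.8, against 36.3 over all members. Their median G+C content was 39.8%, against 39.3% for coding windows of that chromosome. The 4 large autosomal arms ranged from 97.8 per Mb on 2L to 108.02 on 3R, with intervals that overlap.

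**Figure D5:**
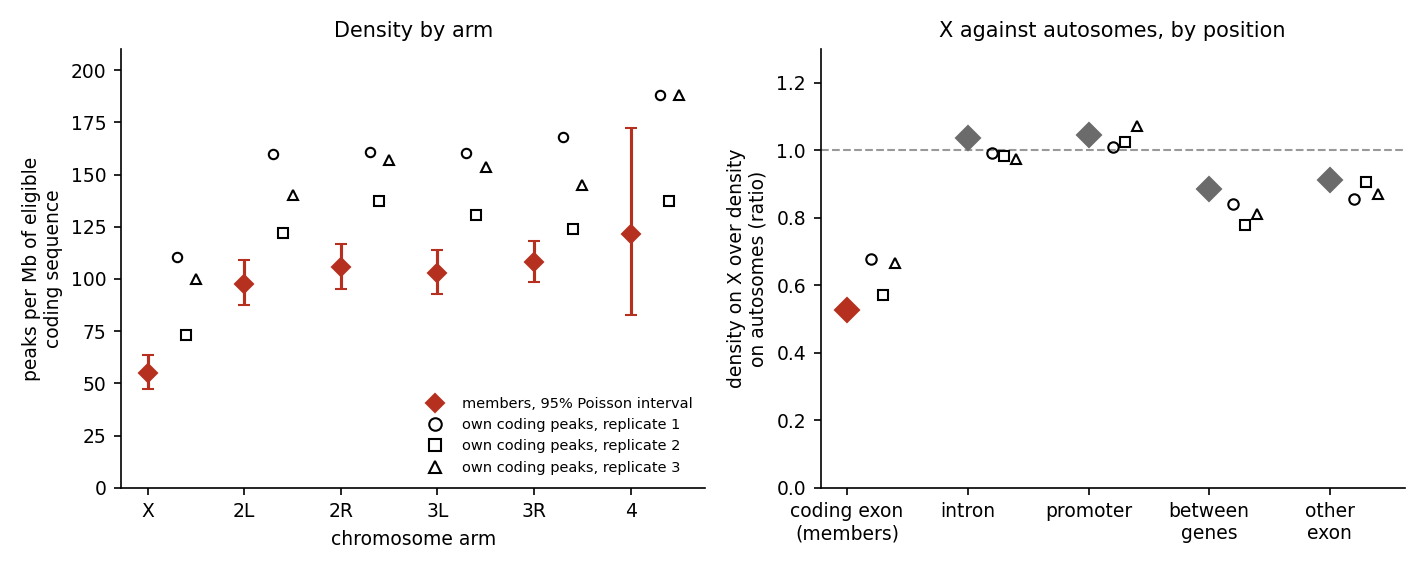
Left, members per Mb of eligible coding sequence by arm with exact 95% Poisson intervals, and the weak coding peaks of each replicate list as open symbols; X is lowest in the pooled list and in every replicate list. Right, density on X over density on autosomes for members and the other classes of weak peaks, pooled (diamonds) and by replicate; members are at 0.528 and the other classes between 0.885 and 1.04.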

How the data were processed

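The authors deposited peak lists with 1 peak a line, and per the listings beside them the pooled list was called on all 3 replicates with a control alignment that is not analysed here. The peak caller is not given in the sources used here, nor is the aligner. The deposited signal value and −log10 q value (so read by the convention of the format) of each peak are the authors' own and were used to describe and rank peaks within a list. The lists on dm6 were used, with the Ensembl release 115 annotation and the RefSeq genome of that build. A summit within 500 bp of a transcript start was at a promoter. Replicates are biological by the labels. Background windows were all separate windows of 100 bp on either side of an eligible coding base. Intervals are exact, at 95%, and cover counting error only, since peaks are not replicates. The only test given was an exact sign permutation over 3 replicates, for the ratio of X to autosomes. It was not planned for that ratio, where only a description was planned. It was planned for presence and rank but is not given there, since the pooled list comes from the same replicates. Named were the 12 strongest members, the 8 hosts with most members, the strongest member of each list, ISWI complex subunits, and peaks at the edges of the rule. Members, lists and motifs were chosen with earlier results of these data known. The classification was checked on simulated peaks. Python 3.11.15, NumPy 2.4.6, pandas 2.3.3, SciPy 1.17.1 and Matplotlib 3.10.9 were used.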

Additional observations from a re-analysis of the deposited data

How the results depend on the processing

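The number of members stayed within 1.5 times of 1775 under all 5 other definitions, from 1215 to 2049. The coding share of weak peaks was 4.78% in the stronger 50% of weak peaks, 13.997% in the weaker 50% and 11.6% over the replicate lists. The share of members in all 3 replicates was 10.8% with an overlap of 50% of both peaks, 5.92% with summits within 100 bp, 27.0% in the stronger 50% of members, and 28.8% to 32.3% in both others when 1 replicate was left out. Median rank within replicate lists moved by less than 1 SD without any single replicate. Median G+C was 55.4% with 50 bp on either side of the summit, 52.4% with 200 bp and 55.2% in members found in all 3 replicates, and in coding windows it was 53.5% and 51.4% at those widths. The X share was 8.24% in members found in all 3 replicates and 8.78% in the stronger 50%. The median coding exon was 686 bp in the transcript with the longest coding sequence, 571 bp in members found in all 3 replicates and 659.5 bp in the stronger 50%. The counts of motifs and lists above all coding sequence stayed within 1.5 times. For these moved values the cause was not tested. No paired analysis was possible because there is 1 group. Depth is unknown from peak lists, and counts of 0 to 16 members a list leave wide intervals.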
